A study of Mus musculus with 32 samples.

Results

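The potassium channel genes of the mouse were examined in the hypothalamus, across wild-type and Gpr101 knockout males on control and high-fat diet. Members were the protein-coding genes whose symbol in the GRCm38 annotation begins with Kcn followed by one of the subfamily letters a, b, c, d, e, f, g, h, j, k, m, n, q, s, t, u or v. The rule used names alone and no measured value. It gave 89 of the 55401 genes listed, in 19 subfamilies, and 78 of the 89 had enough reads to be tested among 19928 tested genes. Testing required a normalized count (reads divided by a size factor of the library) of 10 or more in 7 or more libraries.

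Total RNA of the hypothalamus, the brain region that governs feeding, energy use and pituitary secretion, was sequenced from 32 male C57BL/6NTac mice, 1 library each. Wild-type littermates on control diet (WT_CD) numbered 7 and those on high-fat diet (WT_HFD) 8. Hemizygous Gpr101 knockouts on control diet (KO_CD) numbered 8 and those on high-fat diet (KO_HFD) 9. High-fat diet, with 60% of its energy from fat, began at 7 weeks after chow. The mice were 149 or 150 days old at death, and the 149-day mice were 6 of 7 in WT_CD, 1 of 8 in WT_HFD, 5 of 8 in KO_CD and 1 of 9 in KO_HFD, so age followed diet. Gpr101, X-linked and therefore in a single copy in males, encodes an orphan receptor coupled to G proteins. The labels name no promoter or cell type that would limit the deletion, and whole hypothalamus mixes neurons with glia and vessels.

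Potassium channels let potassium leave the cell along its gradient and so set the resting potential, end action potentials and shape firing. Voltage-gated channels (a to d, q and h, with the silent subunits f, g, s and v) open on depolarization, inward rectifiers (j) and pore-pair leak channels (k) act near rest, and calcium- or sodium-activated channels (m, n and t) answer to ions inside the cell. In the hypothalamus, channels gated by ATP, by G proteins and by muscarinic signals are known routes by which glucose, leptin, insulin and peptides alter the firing of feeding neurons, and glial inward rectifiers clear potassium released by neurons.

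Libraries held 25.33 to 34.19 M (megareads) on genes, with a median of 27.71 M, and the members took 0.35 to 0.39% of them in every group. Gpr101 reads checked the labels: the KO_CD libraries held 0, the KO_HFD libraries 1 in all, and the wild-type libraries 2471 to 3472 each. All 9 hypothalamic marker genes (Pomc, Agrp, Hcrt, Pmch, Avp, Oxt, Sim1, Nr5a1 and Rax) were detected and tested. Markers of red blood cells and of meninges differed between libraries, as given beside the results they touch. Other lists differed too. Summed counts of 7 immediate early genes (Fos, Fosb, Egr1, Junb, Arc, Nr4a1 and Dusp1) ran from 2842 to 8947 in KO_CD and 4922 to 13325 in WT_CD. They ran from 5556 to 10375 in WT_HFD and 4960 to 10469 in KO_HFD. Anterior pituitary markers ran from 36.97 in a KO_CD library to 475.9 in a WT_HFD library. Their relation to the members was not tested. Nothing in the labels says how the hypothalamus was cut out.

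A single member passed the test in any comparison. Kcnj10, which encodes the inward rectifier Kir4.1 of astrocytes and oligodendrocytes and lies on GRCm38 chromosome 1 from 172341210 to 172374085 on the plus strand, was lower on high-fat diet. Normalized counts of Kcnj10 had a lowest, median and highest value of 10461, 10833 and 11105 in WT_CD. In WT_HFD they were 9525, 10038 and 10362, so every wild-type mouse on high-fat diet lay below every wild-type mouse on control diet. How many of all tested genes separate as far, here or for the members below, was not counted. Knockouts had 10085, 10632 and 11198 in KO_CD and 9587, 9719 and 11031 in KO_HFD, and 7 of the 9 KO_HFD mice were below the lowest KO_CD mouse. The exceptions were KO_HFD replicate 4, at 11031, and replicate 9, at 10224. Of all 17 mice on high-fat diet, 12 were below the lowest and 16 below the median of the 15 mice on control diet.

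Averaged over genotypes, the log2 fold change of Kcnj10 on high-fat diet was -0.111 (SE 0.017, 95% interval -0.145 to -0.076), so that its level fell by 7.40%, with a limma adjusted p of 0.00018. By p it ranked 7 among the 19928 genes tested. The change was close in both genotypes, at -0.116 (SE 0.025) in wild type and -0.105 (SE 0.023) in knockouts, and in neither genotype alone did it pass over all genes (limma adjusted p of 0.0808 and 0.0776). The interaction of genotype and diet was 0.011 for Kcnj10 (limma adjusted p of 0.999). Genotype averaged over diets gave -0.018 (limma adjusted p of 0.929). Per length, Kcnj10 stood at 71.4 ± 1.48 RPKM in WT_CD (SD, n = 7), 66.1 ± 1.82 in WT_HFD (n = 8), 70.1 ± 2.21 in KO_CD (n = 8) and 65.5 ± 2.98 in KO_HFD (n = 9), where RPKM is reads per kilobase of exon and per 1 M reads on genes.

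Age was separable from diet for Kcnj10 only in part. With age as a covariate it was -0.123 (limma adjusted p of 0.00586), and within knockouts of 150 days, 3 on control and 8 on high-fat diet, it was -0.116 with an unadjusted limma p of 0.00515 and an adjusted p of 0.998. In wild type, 1 mouse of each diet had the age of the other diet's majority, too few for a value within an age. Leaving out each mouse in turn gave -0.121 to -0.106, with an adjusted p below the threshold in 32 of 32 fits.

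Astrocyte markers were the nearest cell measure for Kcnj10. The 6 markers (Aqp4, Slc1a2, Slc1a3, Gja1, Aldoc and Gfap) had a median log2 fold change of -0.019 on high-fat diet averaged over genotypes, 4 of 6 were below 0 and none was called. Their summed normalized count ranged from 86436 to 95035 in WT_CD, 88513 to 94212 in WT_HFD, 88177 to 96319 in KO_CD and 85489 to 91139 in KO_HFD, and none was at 0 in all libraries. Aqp4, the water channel of astrocyte endfeet, had the lowest value of the 6, -0.091 (SE 0.032), with a limma adjusted p of 0.253. With the mean of these markers as a covariate, the fold change of Kcnj10 was -0.101 (limma adjusted p of 0.000246), and with the oligodendrocyte markers it was -0.111 (limma adjusted p of 0.000128). In whole tissue, fewer cells of a type and less RNA per cell cannot be told apart.

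Red blood cell and meningeal markers had values above 0 on high-fat diet, averaged over genotypes. All 5 blood markers were above 0 with a median of 0.593, and 4 were called higher. Their summed count ranged from 9586 to 15877 in WT_CD and from 14621 to 39562 in WT_HFD. In knockouts it ranged from 9038 to 20283 in KO_CD and from 14641 to 35458 in KO_HFD, with wider overlap. All 6 meningeal markers were above 0 with a median of 0.396 and none called. With the blood markers as a covariate Kcnj10 fell by 0.141 (limma adjusted p of 0.000437), and with the meningeal markers by 0.101 (limma adjusted p of 0.0008). These 4 marker covariates were added after the data were seen.

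**Figure D1:**
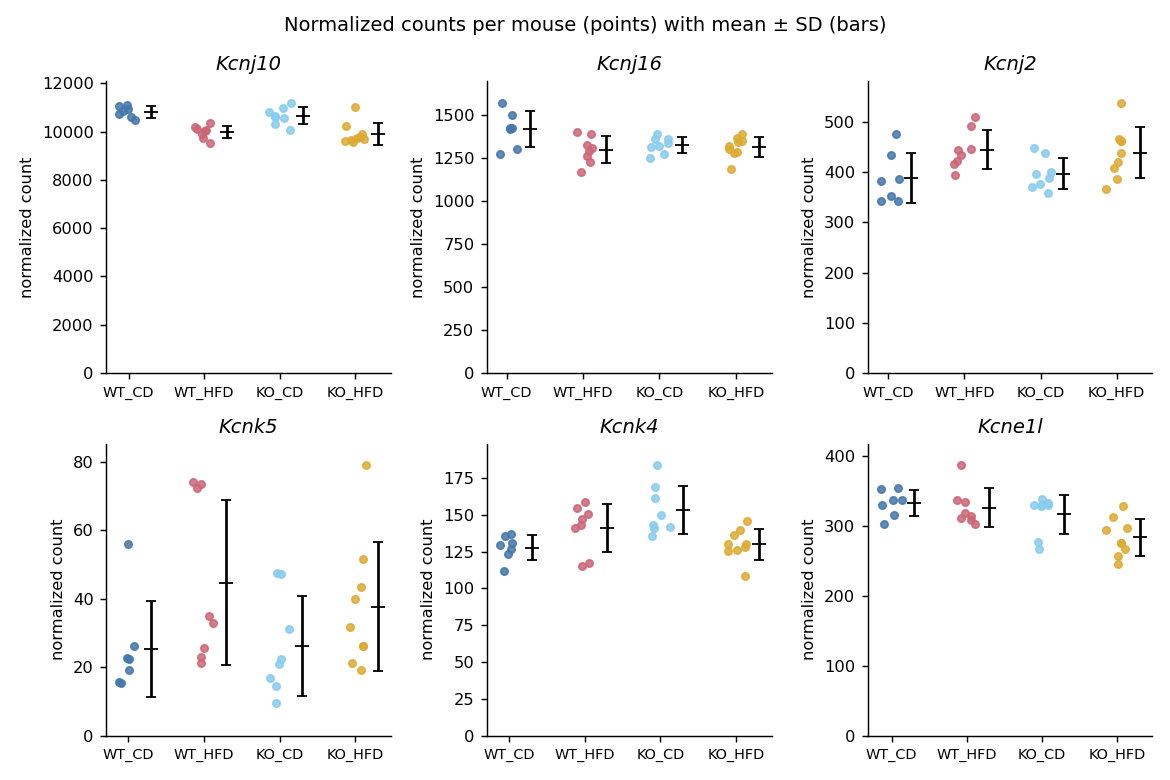
Normalized count per mouse (vertical axis, from 0) in the 4 groups for 6 members, with each mouse as a point and the mean ± SD as a bar. For Kcnj10 the 8 WT_HFD mice lie at 9525 to 10362, below the 7 WT_CD mice at 10461 to 11105. Its knockout groups and the groups of the other 5 members overlap. Such separation was not counted over all genes.

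The sequence just before the annotated start of Kcnj10 is shown beside that of Kcnj16, which encodes Kir5.1, its partner subunit in heteromeric astrocyte channels. Both are the 250 bases upstream of a RefSeq transcript start on GRCm38.p6, plus strand, chr1:172340960-172341209 for Kcnj10 and chr11:110967783-110968032 for Kcnj16 (the first of 4 starts listed). Capitals mark matches, on either strand, to GGGCGG (a GC box), TATAAA, TGACGTCA or TTCNNNGAA.
Kcnj10: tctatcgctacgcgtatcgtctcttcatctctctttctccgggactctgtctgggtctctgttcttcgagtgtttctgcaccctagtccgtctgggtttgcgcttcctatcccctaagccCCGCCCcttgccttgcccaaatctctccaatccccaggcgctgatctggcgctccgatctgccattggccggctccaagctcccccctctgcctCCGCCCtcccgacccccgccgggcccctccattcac
Kcnj16: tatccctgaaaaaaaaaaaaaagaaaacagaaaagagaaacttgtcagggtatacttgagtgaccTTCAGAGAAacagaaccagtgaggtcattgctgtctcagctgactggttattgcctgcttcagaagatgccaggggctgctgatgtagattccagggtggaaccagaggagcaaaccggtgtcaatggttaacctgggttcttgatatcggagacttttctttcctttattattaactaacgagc
The Kcnj10 window held 2 GC boxes, a match found in 32.7% of 32851 promoters of this length, and 17 CG dinucleotides with 62.0% G and C. The Kcnj16 window held no GC box, 1 match to TTCNNNGAA (7.02% of promoters), 3 CG dinucleotides and 42.8% G and C. Neither held TATAAA (12.4% of promoters) or TGACGTCA (1.55%).

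Across the family, levels in wild type on control diet spanned from below detection to that of Kcnj10. Of the 89 members, 19 reached 10 RPKM, 60 reached 1 RPKM and 29 stayed below 1 RPKM. The median of the 78 tested members was 3.11 RPKM, against 4.98 RPKM for all tested protein-coding genes. After Kcnj10, the highest were Kcnab2 (31.2 ± 1.84 RPKM), a cytoplasmic beta subunit of Shaker-type channels, and Kcnc1 (27.6 ± 1.11 RPKM), a Shaw-type channel of fast-spiking neurons. Kcnt1 (21.8 ± 1.01 RPKM), a sodium-activated channel, was also among the leading members (SD, n = 7 for each). Neighbours in this order overlapped in part: Kcnt1 and Kcnj9 (20.6 ± 0.686), and Kcnj9 and Kcna2 (20.1 ± 0.767), differed by less than the sum of their SDs.

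**Figure D2:**
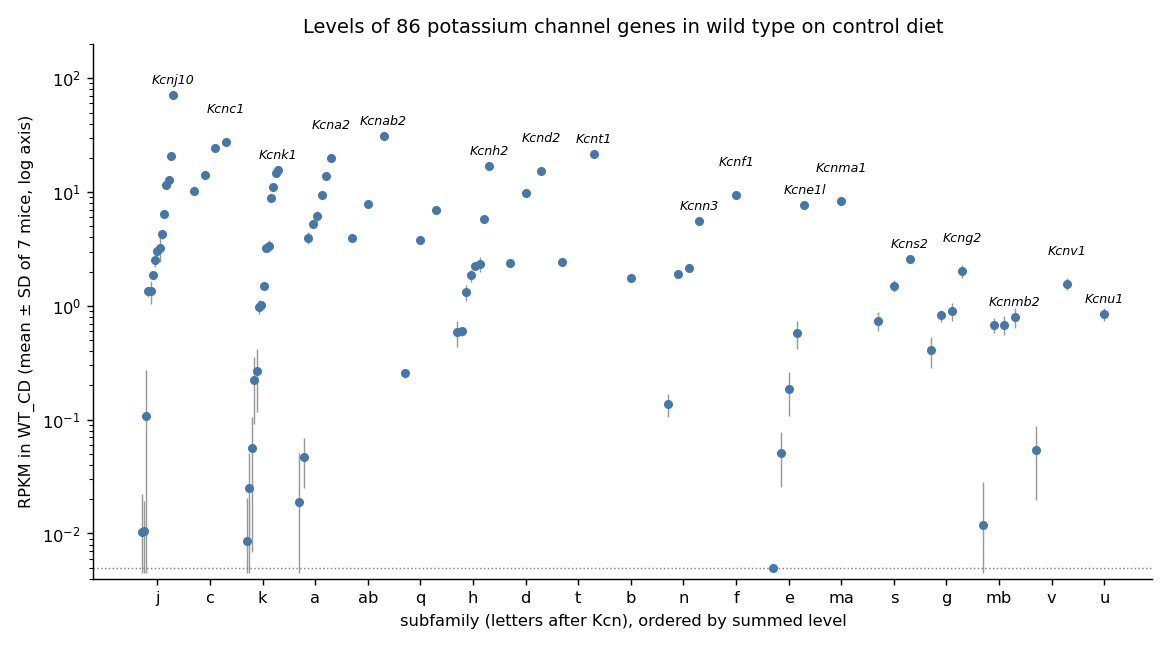
Level of 86 of the 89 members in WT_CD (RPKM, log axis, mean ± SD of 7 mice), arranged by subfamily from the highest summed level at the left, with the highest member named in 17 of the 19 subfamilies. Kcnj10 stands alone at 71.4 RPKM, and the dotted line marks the bottom of the axis, where Kcne1, with 0 reads, is drawn.

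Summed by subfamily in WT_CD, inward rectifiers held the most, at 141 ± 2.95 RPKM over 15 members, with 50.8% of it from Kcnj10. Shaw-type channels (Kcnc, 4 members) followed at 76.2 ± 3.79 RPKM, leak channels (Kcnk, 14 members) at 60.8 ± 0.811 and Shaker-type channels (Kcna, 8 members) at 59.0 ± 1.98. The Shaker beta subunits (Kcnab, 3 members) stood at 43.1 ± 2.07 RPKM, M channels and their kin (Kcnq, 5 members) at 36.4 ± 0.926 and the ether-a-go-go group (Kcnh, 8 members) at 31.7 ± 0.875. A-type channels (Kcnd, 3 members) had 27.6 ± 0.687 RPKM and sodium-activated channels (Kcnt, 2 members) 24.2 ± 0.958. The small-conductance calcium-activated group (Kcnn, 4 members) had 9.76 ± 0.33 RPKM and the big-conductance pore gene Kcnma1 8.4 ± 0.309. Its beta subunits (Kcnmb, 4 members) summed to 2.17 ± 0.138 RPKM. The lowest sum was that of Kcnu1, whose channel is known from sperm, at 0.846 ± 0.106.

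Several subfamilies rested on 1 gene. Kcnt1 held 90.1% of the sodium-activated level, Kcnv1 96.7% of the Kcnv level and Kcne1l (also known as Kcne5, an ancillary subunit) 90.4% of the Kcne level. Leak and Shaker-type channels were spread more evenly, with Kcnk1 at 25.7% and Kcna2 at 34.1% of their sums.

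Over the 4 groups the sums of leak and A-type channels lay close together, and the inward rectifier and Kcne sums differed more than these. The inward rectifier sum was 141 ± 2.95 RPKM in WT_CD, 134 ± 2.27 in WT_HFD, 138 ± 2.95 in KO_CD and 134 ± 3.87 in KO_HFD, and this sum contains Kcnj10. The Kcne sum was 8.51 ± 0.344, 8.42 ± 0.649, 8.00 ± 0.566 and 7.34 ± 0.556 in the same order. Leak channels stood at 60.8 ± 0.811, 61.0 ± 1.26, 62.3 ± 1.46 and 62.2 ± 1.32, and A-type channels at 27.6 ± 0.687, 27.2 ± 0.527, 27.6 ± 0.74 and 27.4 ± 0.648. Sums of low level varied as well: Kcng had 4.15 ± 0.262, 4.24 ± 0.341, 4.48 ± 0.278 and 4.21 ± 0.353, and Kcnu1 0.846 ± 0.106, 0.806 ± 0.12, 0.853 ± 0.109 and 0.754 ± 0.0769. The sums were not tested.

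The 11 members below the filter had few reads over the 32 libraries together. Kcne1 had 0, which allows up to 0.00333 reads per 1 M (3 reads over all libraries). Kcna7 had 15, Kcnj1 18, Kcnk16 22, Kcnmb3 34, Kcnk18 50, Kcnj15 88, Kcne3 92, Kcnk15 96, Kcna10 140 and Kcnv2 224 reads. None exceeded 0.181 RPKM in a library, the value of Kcna10 in KO_HFD replicate 5. Several of these are known from muscle, kidney, pancreas, retina or ear.

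Diet averaged over genotypes was the comparison with the most called genes, and its background was 0.336% of all tested genes called (0.186% higher, 0.151% lower). Among the 78 members 1 was called, Kcnj10, and limma-voom also called 1. At an unadjusted p below 0.05 there were 2 higher and 7 lower members, 9 of 78, where 11.1% of all genes had such a p (5.88% higher, 5.20% lower). Of the 78, 54 were below 0 and 24 above, 30.8% above 0 against 49.4% of all genes, and their median log2 fold change was -0.021 against -0.001 over all genes. Scaling by total reads or by the upper quartile left 51 and 55 of 78 below 0. The members share tissue and libraries and are not independent of each other. All 4 Shaw-type members and 10 of 13 inward rectifiers were below 0, and 6 of 11 leak channels were above 0.

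**Figure D3:**
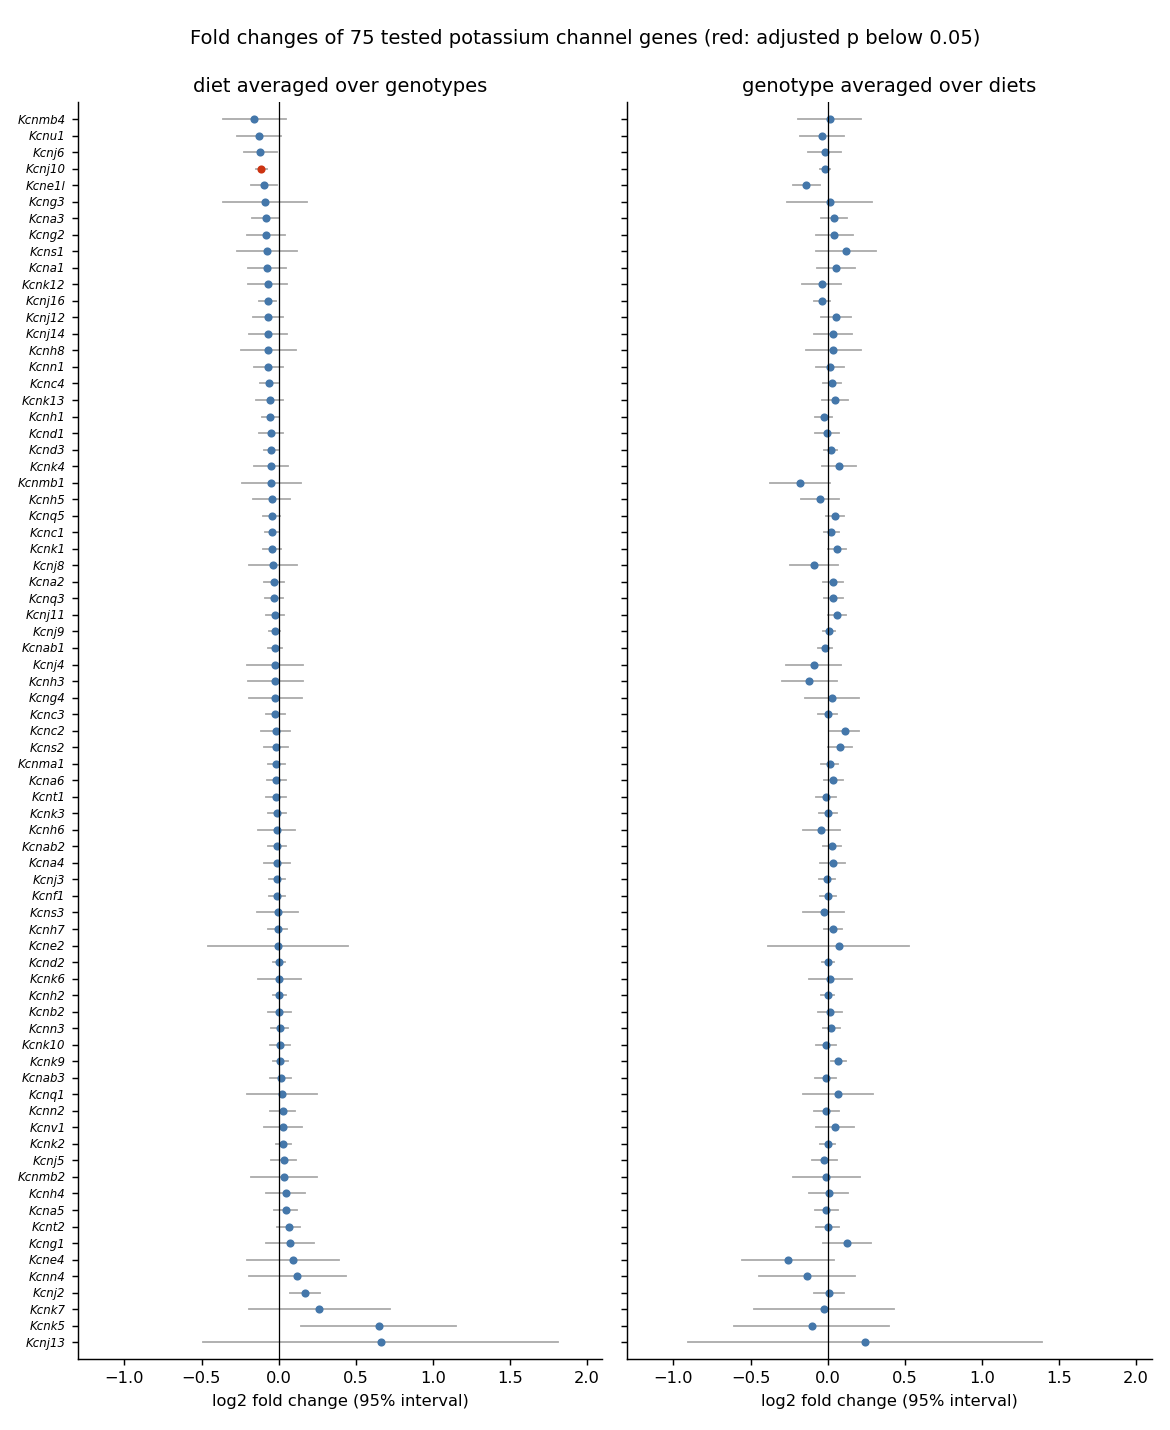
Log2 fold change (points) with 95% interval (lines) of 75 of the 78 tested members for diet averaged over genotypes (left, high-fat against control) and genotype averaged over diets (right, knockout against wild type), both in the order of the left panel. Most points lie within 0.2 of 0, the intervals widen for members with few reads such as Kcnj13 and Kcnk5, and Kcnj10 at left is the red point at -0.111.

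Kcnj2, which encodes the strong inward rectifier Kir2.1, had the smallest p of the members above 0, at 0.170 (SE 0.048) with a limma adjusted p of 0.113. Its normalized counts were 343.4, 382.3 and 476.5 (lowest, median, highest) in WT_CD and 394.5, 439.5 and 509.9 in WT_HFD, and all 8 WT_HFD mice exceeded the WT_CD median. In knockouts they were 359.2, 392.7 and 448.2 on control and 367.3, 438.3 and 538.8 on high-fat diet, with wider overlap. Without WT_CD replicate 3, the highest mouse of its group, Kcnj2 reached 0.195 and a limma adjusted p of 0.039. With age as a covariate it was 0.120 (limma adjusted p of 0.554), and with the meningeal markers 0.132 (limma adjusted p of 0.26). Within knockouts its diet value was 0.138, and 0.032 in those of 150 days (unadjusted limma p of 0.721). Kcnj2 (chromosome 11, 111066164 to 111076821) lies downstream of Kcnj16 (110968033 to 111027968) on the same strand.

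Kcnj16 itself had normalized counts of 1268, 1423 and 1569 in WT_CD, 1169, 1298 and 1400 in WT_HFD, 1249, 1326 and 1387 in KO_CD and 1186, 1318 and 1389 in KO_HFD. The WT_CD median was the highest of the 4, and the other 3 groups lay near 1300. Diet averaged over genotypes gave -0.070 (SE 0.027, limma adjusted p of 0.309). It was -0.125 (SE 0.039, limma adjusted p of 0.456) in wild type, and genotype on control diet gave -0.093 (SE 0.039, limma adjusted p of 1). The interaction was 0.112 (SE 0.054, limma adjusted p of 0.999).

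The M channel genes Kcnq3 and Kcnq5, whose channels are closed by muscarinic signals, had values with diet averaged over genotypes of -0.032 (SE 0.029) and -0.046 (SE 0.029), each with an unadjusted limma p above the threshold.

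Kcnk5, an alkaline-sensitive leak channel, had a larger fold change on few reads. Its normalized counts were 15.3, 22.49 and 55.81 in WT_CD, 21.23, 33.95 and 73.96 in WT_HFD, 9.375, 21.65 and 47.44 in KO_CD and 19.23, 31.79 and 78.91 in KO_HFD. The groups overlapped widely. Diet averaged over genotypes gave 0.648 (SE 0.245, limma adjusted p of 0.309), and with the meningeal markers as a covariate 0.304 (limma adjusted p of 0.479). The diet value of Kcnk5 within knockouts was 0.555, and 0.047 in those of 150 days (unadjusted limma p of 0.902). The summed meningeal markers ranged from 7054 to 38239 in WT_CD, 5977 to 64925 in WT_HFD, 6570 to 53720 in KO_CD and 7445 to 67856 in KO_HFD.

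Channels that carry feeding signals in hypothalamic neurons were followed next, and 0 of those named here were called. Of all tested genes 0.336% were called for diet and 0.00502% for genotype, both averaged. A count of 0 therefore does not distinguish these few genes from others. Kcnj11 encodes the pore of the neuronal ATP-sensitive channel, and its normalized counts were 621.9 to 684.2 in WT_CD, 594.2 to 679.1 in WT_HFD, 628.3 to 743.7 in KO_CD and 594.7 to 703.5 in KO_HFD. Its log2 fold change was -0.026 (SE 0.029) with diet and 0.057 (SE 0.029) with genotype, both averaged. Kcnj8, the vascular counterpart of Kcnj11, stood at -0.036 (SE 0.078) with diet. The G protein-gated rectifiers Kcnj3 (-0.010, SE 0.026), Kcnj9 (-0.026, SE 0.019) and Kcnj5 (0.032, SE 0.039) were near 0 with diet. Kcnj6, of the same group, had -0.119 (SE 0.053) with an unadjusted limma p of 0.0293, from a median of 409.3 normalized counts in WT_CD and 385.3 in KO_CD to 357.5 in WT_HFD and 375.4 in KO_HFD.

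Some voltage-gated pores of axons and dendrites also had values near 0, and others lay farther from it. With diet averaged over genotypes, Kcnd2, the dendritic A-type channel, had 0.003 (SE 0.020), and Kcnh2, of the ether-a-go-go group, 0.005 (SE 0.021). Kcna2, an axonal Shaker-type channel, stood at -0.032 (SE 0.032) and Kcnc1 at -0.043 (SE 0.024). Farther from 0 were Kcna1 at -0.075 (limma adjusted p of 0.696) and Kcnd1 at -0.051 (limma adjusted p of 0.662), while Kcnc2 had -0.019. Kcnd2 had medians of 2215, 2247, 2247 and 2224 normalized counts in WT_CD, WT_HFD, KO_CD and KO_HFD. Among calcium- and sodium-activated channels, Kcnma1 had -0.016 (SE 0.027), Kcnn3 0.008 (SE 0.027), Kcnn2 0.027 (SE 0.040) and Kcnt1 -0.014 (SE 0.032). No adjusted p of these passed, and a p that misses the threshold does not show that levels were equal.

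In wild type alone, diet gave 0 called members by limma, against 0.0251% of all genes called, and limma-voom also called 0. With an unadjusted p below 0.05 there were 2 higher and 6 lower members, where 7.39% of all genes had such a p (3.85% higher, 3.54% lower). The median member stood at -0.025, against -0.000 over all genes. Under limma-voom with quality weights 1 member, Kcnj10, was called (adjusted p of 0.0433). Among the 11 tested leak channels, Kcnk5 was the single one with an unadjusted p below 0.05.

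In knockouts alone, limma and limma-voom called 0 members for diet, against a background of 0.0351%. At an unadjusted p below 0.05 limma had 1 higher and 5 lower members, where 7.04% of all genes had such a p (3.56% higher, 3.47% lower), and limma-voom had 0 higher and 5 lower. Besides Kcnj10, the smallest p values below 0 were those of Kcnk4 (-0.232, SE 0.076) and Kcne1l (-0.158, SE 0.059), with limma adjusted p of 0.453 and 0.535. Kcng2, a silent subunit that modifies Shab-type channels, had -0.184 (SE 0.083, limma adjusted p of 0.655).

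Genotype on control diet compares mice with and without Gpr101 in the absence of a dietary load. Limma and limma-voom called 0 members, against 0.00502% of all genes, which is Gpr101 itself. There were 3 higher and 1 lower members at an unadjusted p below 0.05 by either tool, where 4.12% of all genes had such a p (1.98% higher, 2.14% lower). Kcnk4, a mechanosensitive leak channel, had 111.8, 129.1 and 137.1 normalized counts in WT_CD and 135.8, 146.5 and 183.5 in KO_CD, and 7 of 8 knockouts exceeded the highest wild type. Its log2 fold change was 0.257 (SE 0.081, limma adjusted p of 1). Kcng1, another silent subunit, had 0.241 (SE 0.112), and Kcnc2, a Shaw-type channel, 0.142 (SE 0.068).

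On high-fat diet, genotype also left 0 members called by limma and by limma-voom, against 0.00502% of all genes. At an unadjusted p below 0.05, 1 member was higher and 3 were lower, where 5.15% of all genes had such a p (2.47% higher, 2.67% lower). Kcne1l had 302.4, 315.6 and 386.4 normalized counts in WT_HFD and 245.9, 275.9 and 328 in KO_HFD, and 7 of 9 knockouts lay below the lowest wild type (-0.203, SE 0.059, limma adjusted p of 0.948). Kcnh3, of the ether-a-go-go group, had -0.301 (SE 0.120). Kcnk9, an acid-sensitive leak channel, stood at 0.099 (SE 0.032), with medians of 5022 in WT_HFD and 5328 in KO_HFD.

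Averaged over diets, genotype called 0 members by limma and limma-voom, against 0.00502% of all genes. Unadjusted p values below 0.05 were found for 4 higher and 2 lower members, where 5.72% of all genes had one (2.62% higher, 3.10% lower), and limma-voom gave 3 and 2. The higher ones were Kcnk9 (0.069, SE 0.024), Kcnc2 (0.111, SE 0.046), Kcnk1 (0.060, SE 0.028) and the silent subunit gene Kcns2 (0.080, SE 0.038). The lower ones included Kcne1l (-0.140, SE 0.043), which had a limma adjusted p of 0.758. Kcne1l lies on the X chromosome from 142304752 to 142306294, as does Kcnd1, the other X-linked tested member, which had -0.007 (SE 0.038). The median member stood at 0.011, against -0.002 over all genes.

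The interaction of genotype and diet tests whether diet acted differently in knockouts. Limma and limma-voom called 0 members, with 0% of all genes called by limma. Limma gave 1 member above 0 and 2 below 0 an unadjusted p under 0.05, as did limma-voom, where 3.39% of all genes had such a p (1.54% higher, 1.86% lower). The smallest p was that of Kcnk4, at -0.368 (SE 0.111, 95% interval -0.591 to -0.145, limma adjusted p of 0.999). Its median normalized count was 129.1 in WT_CD and 145.1 in WT_HFD, but 146.5 in KO_CD and 130.1 in KO_HFD, so the groups of mice with only the diet or only the knockout were the highest. The exons of Kcnk4 (chromosome 19, 6923966 to 6934515, minus strand) share 587 bases with those of Catsperz on the same strand, and reads there may belong to either gene. Kcnk4 and Kcnab2 were the 2 tested members with such an overlap, and 23 tested members share exon bases with a gene on the opposite strand. Kcnh3 followed with -0.363 (SE 0.176).

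Proteins that assemble with these channels were followed as a list of 22 partners, of which 21 were tested. The list holds the Kv4 partners Kcnip1 to Kcnip4, Dpp6 and Dpp10, the sulfonylurea receptors Abcc8 and Abcc9, the axonal scaffolds Cntnap1, Cntnap2, Dlg4, Lgi1 and Adam22, and Amigo1, the Lrrc auxiliary subunits and the Hcn channels. With diet averaged over genotypes 0 were called by limma, 17 of 21 were below 0 with a median of -0.024, and 0 higher and 2 lower had an unadjusted p below 0.05. Of all tested genes 0.336% were called, 11.1% had such a p and 49.4% were above 0. Kcnip3, a calcium sensor that binds A-type channels, had the smallest limma adjusted p, 0.0993, at -0.083 (SE 0.023). The synaptic scaffold gene Dlg4 had -0.040 (SE 0.015, limma adjusted p of 0.267). With genotype averaged over diets 0 partners were called, against 0.00502% of all genes, and 2 higher and 1 lower had an unadjusted p below 0.05, against 5.72%. The smallest p was again that of Kcnip3, at -0.074 (SE 0.023, limma adjusted p of 0.758), followed by Lrrc26, an auxiliary subunit of the big-conductance channel, at 0.388 (SE 0.128, limma adjusted p of 0.775). Lrrc26 had few reads, with 10.85 to 25.79 normalized counts in WT_HFD and 21.8 to 36.92 in KO_HFD. Its genotype value was 0.577 (SE 0.175) on high-fat diet and 0.200 (SE 0.187) on control diet.

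Some members mark particular cells, and 6 such pairs of a gene and a marker list were related over the 32 mice. Kcnj13, a rectifier of choroid plexus and other epithelia, was related to the mean of 6 choroid plexus markers (Pearson r = 0.659, permutation p = 5e-05, adjusted over 6 pairs 0.0003; Spearman rho = 0.681, permutation p = 3e-05). Without the 2 mice farthest from the median of the markers r was 0.669, and it was 0.825 within the 13 mice of 149 days and 0.616 within the 19 of 150 days. Kcnj13 had few reads, with medians of 1.981, 9.984, 3.53 and 8.195 normalized counts in WT_CD, WT_HFD, KO_CD and KO_HFD and 0 in some mice of 3 groups. Its diet value averaged over genotypes was 0.661, and -0.23 with the meningeal markers as a covariate. The relation of Kcnj13 to the meningeal markers was not tested. Of its 1270 exon bases, 623 overlap Gigyf2 on the opposite strand, and the sources used here do not give the strand setting of the counting.

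Both glial rectifiers were related to the astrocyte markers. Kcnj10 had r = 0.481 (permutation p = 0.00508, adjusted 0.0102) and rho = 0.465 (permutation p = 0.00762), with r = 0.469 without the 2 farthest mice. For Kcnj16 r was 0.498 (permutation p = 0.00352, adjusted 0.0102) and rho 0.466 (permutation p = 0.00739), with 0.483 without those mice. As deviations from the group means, r was 0.512 for Kcnj10 and 0.531 for Kcnj16. Within 149 and 150 days r was 0.535 and 0.444 for Kcnj10, and neither passed after adjustment (permutation p adjusted 0.116 and 0.169). For Kcnj16 it was 0.665 and 0.289, and the second did not pass (permutation p adjusted 0.456).

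The remaining pairs showed no detectable relation over these mice. Kcne2 with choroid plexus markers had r = -0.059 (rho = 0.001, permutation p = 0.75 and 0.996), and Kcnj8 with pericyte markers r = 0.077 (rho = 0.09, permutation p = 0.676 and 0.622). Kcnk13, a leak channel of microglia, had r = 0.091 with microglial markers (rho = 0.125, permutation p = 0.617 and 0.494). Without the 2 farthest mice r was 0.057, 0.046 and 0.142.

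**Figure D4:**
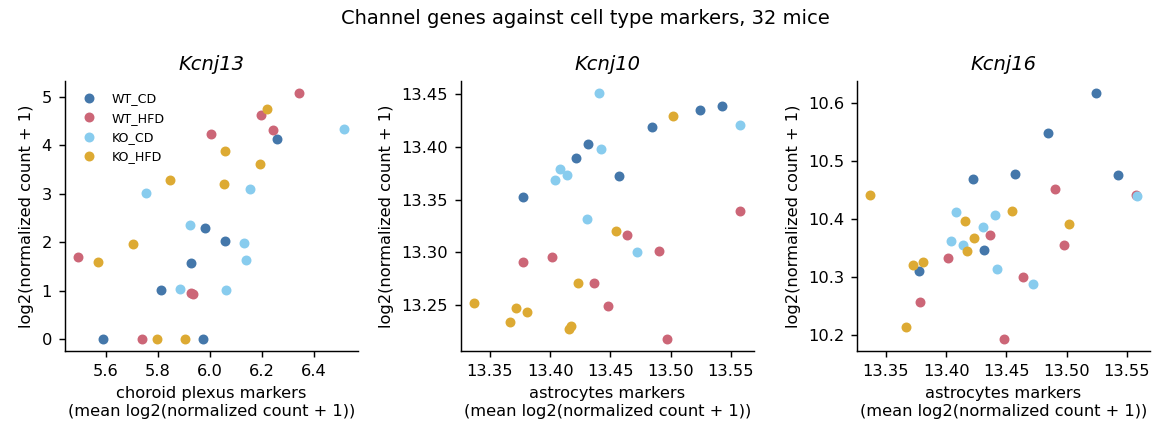
Log2(normalized count + 1) of Kcnj13, Kcnj10 and Kcnj16 (vertical axes) against the mean log2(normalized count + 1) of choroid plexus or astrocyte markers (horizontal axes) in 32 mice, coloured by group; axes do not start at 0. All 3 panels slope upward (r of 0.659, 0.481 and 0.498), and at a given astrocyte level most mice on high-fat diet lie below those on control diet for Kcnj10.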

How the data were processed

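The authors deposited 1 log2 value per gene and library. Per the submitters' processing notes, Trim Galore 0.6.2, cutadapt 2.10, STAR 2.7.6a, DESeq2 1.28.1 and R 4.0.2 were used with GRCm38. The sources used here do not give the counting tool or its strand setting. Undoing the log returned whole reads divided by a size factor for 100.0% of 889534 values (tolerance 1e-06 reads), and 0 reads are listed as the log2 of 0.1. Symbols and exon lengths came from a GRCm38 annotation (GENCODE M21), which held 55141 of 55401 identifiers.

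All 4 groups entered 1 limma 3.58.1 fit (R 4.3.3, statmod 1.5.0) of log2(normalized count + 1), with an intensity trend, robust moderation and no covariate. The pseudocount of 1 understates the changes of genes with few reads. P-values were two-sided and adjusted by Benjamini-Hochberg over all 19928 tested genes, and called means an adjusted p below 0.05. Marker relations used 100000 permutations. Each library comes from a separately labelled mouse, and the spread is that between mice. Counting limits cover counting error only.

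The members, the partner and marker lists and the named genes were chosen with earlier results of these data known. Named genes were every called member, in each comparison the 3 higher and 3 lower members of smallest p, the highest member of each subfamily and a panel of well-known channels, and the members below the filter. The values of 3 members are not reported here, though counts over the family include them. Kcnj2 without WT_CD replicate 3 and the order of the leading levels were added after the values were seen. Alternatives covered scaling, pseudocount, filter, limma-voom, age, the description number, the replicate block, each mouse left out, and marker covariates. The description number runs from 1 to 32 over the samples, with every group spread along it, and the labels do not say what it means. Replicate numbers were shared between groups but the labels tie them to no litter, batch or day, as described with the alternatives.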

Additional observations from a re-analysis of the deposited data

Results flagged for a closer look

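Within the groups, 13 of 176 checks of the named members found a mouse whose gap to the nearest other mouse, divided by the range of the group, exceeded the 95% critical value of Dixon's test, and chance flags about 1 in 20 groups. Each is given as its normalized count with that of the nearest other mouse. KO_CD replicate 4 was the lowest of its group in 3 of them: Kcna1 at 641.4 (next 801.5), Kcnj6 at 276.8 (next 377.9) and Kcnn3 at 1495 (next 1618). These are neuronal channels of the Shaker, G protein-gated and calcium-activated groups. Also on control diet, Kcnab2 was lowest in KO_CD replicate 1 at 4534 (next 4884), Kcnh3 lowest in KO_CD replicate 3 at 76.04 (next 94.73), and Kcnk5 highest in WT_CD replicate 3 at 55.81 (next 26.07).

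On high-fat diet, Kcnj10 was highest in KO_HFD replicate 4 at 11031 (next 10224), and without that mouse the diet difference of Kcnj10 within knockouts was -0.125 with a limma adjusted p of 0.00419. That mouse was picked as the highest of its group, so leaving it out enlarges the fall. Over the 32 fits without 1 mouse this limma adjusted p ran from 0.00419 to 0.214, and 2 passed. Kcnh3 was lowest in KO_HFD replicate 8 at 54.29 (next 76.97), Kcnk4 lowest in KO_HFD replicate 5 at 108.4 (next 125.6) and Kcnmb1 lowest in KO_HFD replicate 3 at 40.92 (next 64.22). In WT_HFD, Kcne1l was highest in replicate 7 at 386.4 (next 337.3), Kcnu1 lowest in replicate 7 at 58.39 (next 76.9) and Kcnt1 lowest in replicate 6 at 4618 (next 5680).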

How the results depend on the processing

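Kcnj10 was lower on high-fat diet, averaged over genotypes, in all 16 alternatives that gave a value (-0.141 to -0.101, limma adjusted p of 5.69e-05 to 0.00586) and in all 32 fits without 1 mouse (adjusted p of 2.92e-06 to 0.000693). For diet, the main fit called 0.0251% of all genes in wild type, 0.0351% in knockouts and 0.336% averaged over genotypes. Shares of all genes under the other settings are not given here, so the counts below cannot be set against them. In wild type alone the count of called members was 0, and 1 under upper-quartile scaling, limma-voom with quality weights, and the astrocyte and blood covariates, each time Kcnj10. Without 1 mouse it ranged from 0 to 1 (1 without KO_HFD replicate 4 or WT_HFD replicate 2). In knockouts it was 0, and 1 under upper-quartile scaling and the blood covariate, and ranged from 0 to 1 without 1 mouse (1 without KO_CD replicate 1 or KO_HFD replicate 4), again Kcnj10. Averaged over genotypes it ranged from 1 to 2, with Kcnj2 added without WT_CD replicate 3. Among values of named members at least 1 SE from 0, 3 changed sign, all with diet averaged over genotypes. They were Kcnd1 (-0.051, and 0.015 with the blood covariate), Kcnmb4 (-0.157, and 0.016 with age) and Kcnj13 (0.661, and -0.230 with the meningeal covariate). None of them was called, and the cause was not tested. Values nearer 0 also changed sign, such as Kcnn2 (0.027, down to -0.051) and Kcnma1 (-0.016, up to 0.021) with diet. The relation to astrocyte markers was 0.535 within 149 days and 0.444 within 150 days for Kcnj10 and 0.289 within 150 days for Kcnj16, none past the threshold, with fewer mice.

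Groups shared replicate numbers, and the numbers were not taken as pairs: over 45 same-numbered pairs from different groups the correlation of deviations from the group means ran from -0.1951 to 0.3214 with a median of 0.005076, and 11 of 32 mice correlated best with their own number, where 3.76 would if every mouse of the other groups were equally likely. The source of this excess was not tested. With the description number as a linear covariate the diet value of Kcnj10 was -0.117 in wild type (limma adjusted p of 0.0891) and -0.106 in knockouts (limma adjusted p of 0.105). With the replicate number as a block Kcnj10 stood at -0.110 (limma adjusted p of 0.000612) with diet averaged over genotypes, and the block changed no count of called members. Depth limits members with few reads, such as Kcnj13, Kcnk5 and the 11 below the filter.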
